A study of Homo sapiens with 6 samples.

Results

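The 64 genes described here are the replication-dependent histone genes found among the 11363 genes listed for RNA of NOMO-1, a human cell line from a monocytic acute myeloid leukaemia. They were chosen by symbol alone, as H1-1 to H1-6 and every gene whose symbol starts with H2AC, H2BC, H3C or H4C. The rule matched 66 listed genes, of which 2 pseudogenes (H2BC19P and H2BC20P) were dropped. Of 70 protein-coding reference genes that match the rule, 6 (H2AC1, H2BC1, H1-1, H1-6, H4C7 and H2BC12L) are not among the listed genes and were not analysed here. By position, 50 genes lie in the large cluster at 6p22, 11 in the smaller cluster at 1q21 and 3 elsewhere: H2AC25 and H2BC26 side by side on the long arm of chromosome 1, and H4C16 on chromosome 12. By class, 4 encode the linker histone H1, 16 H2A, 17 H2B, 13 H3 and 14 H4.

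The knockout cells are labelled as a knockout of MSLN (MSLN-KO, 3 libraries) and were set against parental NOMO-1 cells (WT, 3 libraries), and no treatment is named for either. MSLN encodes mesothelin, a surface glycoprotein anchored by a lipid. The labels give no guide, no clone and no word on whether the libraries of a group came from separate cultures, so each p-value reflects the spread among the libraries at hand, and that spread could be technical. Total RNA was depleted of ribosomal RNA rather than selected for poly(A), per the labels' protocols.

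Replication-dependent histone genes supply the bulk of the histones that package newly made DNA, and they are transcribed mainly in S phase. Their mRNAs are the only ones in animal cells that lack a poly(A) tail: they end in a short stem-loop, which the stem-loop binding protein SLBP holds while the U7 small nuclear ribonucleoprotein directs the cut behind it. Transcription takes place in histone locus bodies, where NPAT, a substrate of cyclin E and its kinase, gathers at the clusters. In a library of depleted total RNA, transcripts without a tail are kept.

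MSLN itself had 45.7, 46.9 and 45.3 CPM (read counts scaled to library size) in MSLN-KO replicates 1 to 3, against 153.2, 122.9 and 106.0 CPM in WT replicates 1 to 3. Every MSLN-KO library lay below every WT library, as the labels would have it, and transcript remained in all of them. The change was -1.43 on the log2(CPM + 1) scale (SE 0.10, limma adjusted p = 1.5e-07). Reads in the listed genes numbered 25230229 to 30804446 in the MSLN-KO libraries and 23665824 to 25765425 in the WT libraries. They were worked out from the CPM values, and reads outside the listed genes are not included. All 15 monocytic markers were listed, with a summed level of 8072 to 8443 CPM in MSLN-KO and 17300 to 17980 CPM in WT. A sum follows its most abundant genes, and not every marker was lower, as FCGR1A was higher in MSLN-KO. Of the markers of other cell types, NKG7 of T and NK cells (1 of 4), KRT18 of epithelium and mesothelium (1 of 6) and PECAM1 of stroma and endothelium (1 of 5) were listed, and none of 3 B cell and 3 erythroid markers. The part of the monocytic markers' difference in the histone levels was not tested.

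A pair of libraries stood low across the histone genes. MSLN-KO replicate 3 was the lowest of its group in 60 of 64 histone genes, against 38.3% of all genes. WT replicate 2 was the lowest of its group in 56 of 64, against 36.5% of all genes. The median histone gene of MSLN-KO replicate 3 stood at -0.17 on the log2 scale from its group mean, and that of WT replicate 2 at -0.15, while the other 4 libraries stood between 0.06 and 0.08. Counts of called genes are given below also without single libraries.

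**Figure D1:**
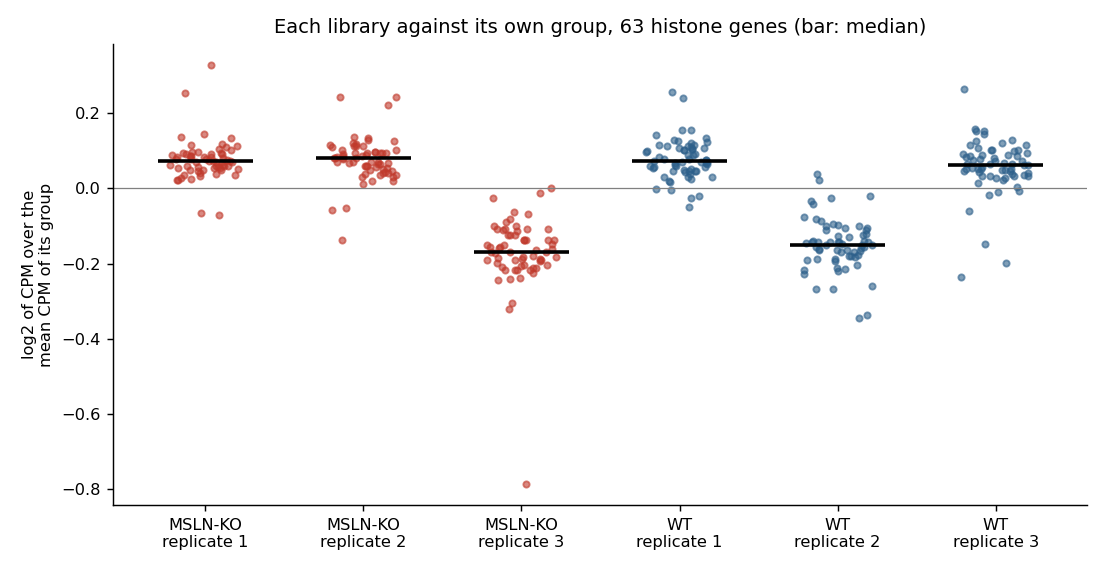
Deviation of each library from its own group, in 63 histone genes (H4C6, at 0 in WT, is left out). The vertical axis is log2 of a gene's CPM over the mean CPM of its group, each point is a gene and the bar is the median. MSLN-KO replicate 3 (median -0.17) and WT replicate 2 (median -0.15) lie below the other libraries of their groups. The point of MSLN-KO replicate 3 at -0.79 is H3C14.

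Of the 64 histone genes, 21 were higher and 4 lower in MSLN-KO (limma, Benjamini-Hochberg adjusted p under 0.05 over all 11363 genes), and 39 were not called. Over all genes, 22.4% were called higher and 23.3% lower. These shares set 21 of 64 above the background and 4 of 64 below it, which was not tested further. The median change of the histone genes was 0.07 on the log2 scale, beside 0.01 over all genes. All MSLN-KO libraries lay above all WT libraries in 17 histone genes and below them in 5, against 26.6% and 28.1% of all genes.

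These counts depended on the low libraries. Without MSLN-KO replicate 1, 13 were called higher, and without MSLN-KO replicate 2, 14. Without MSLN-KO replicate 3, 29 were called higher. Without WT replicate 2, 16 were called higher and 11 lower. When each library was scaled to the same histone total, an alternative chosen after the data were seen, 19 were higher and 16 lower, and the median change was -0.03. The number of genes called in every one of the 14 alternative settings was smaller, and is made up of H2BC3, H3C3, H4C6, H2BC6, H2AC6, H2BC18, H3C13, H4C14, H4C15, H2AC19, H2AC25 and H2BC26, all higher, and H4C13, H3C6 and H1-5, all lower.

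**Figure D2:**
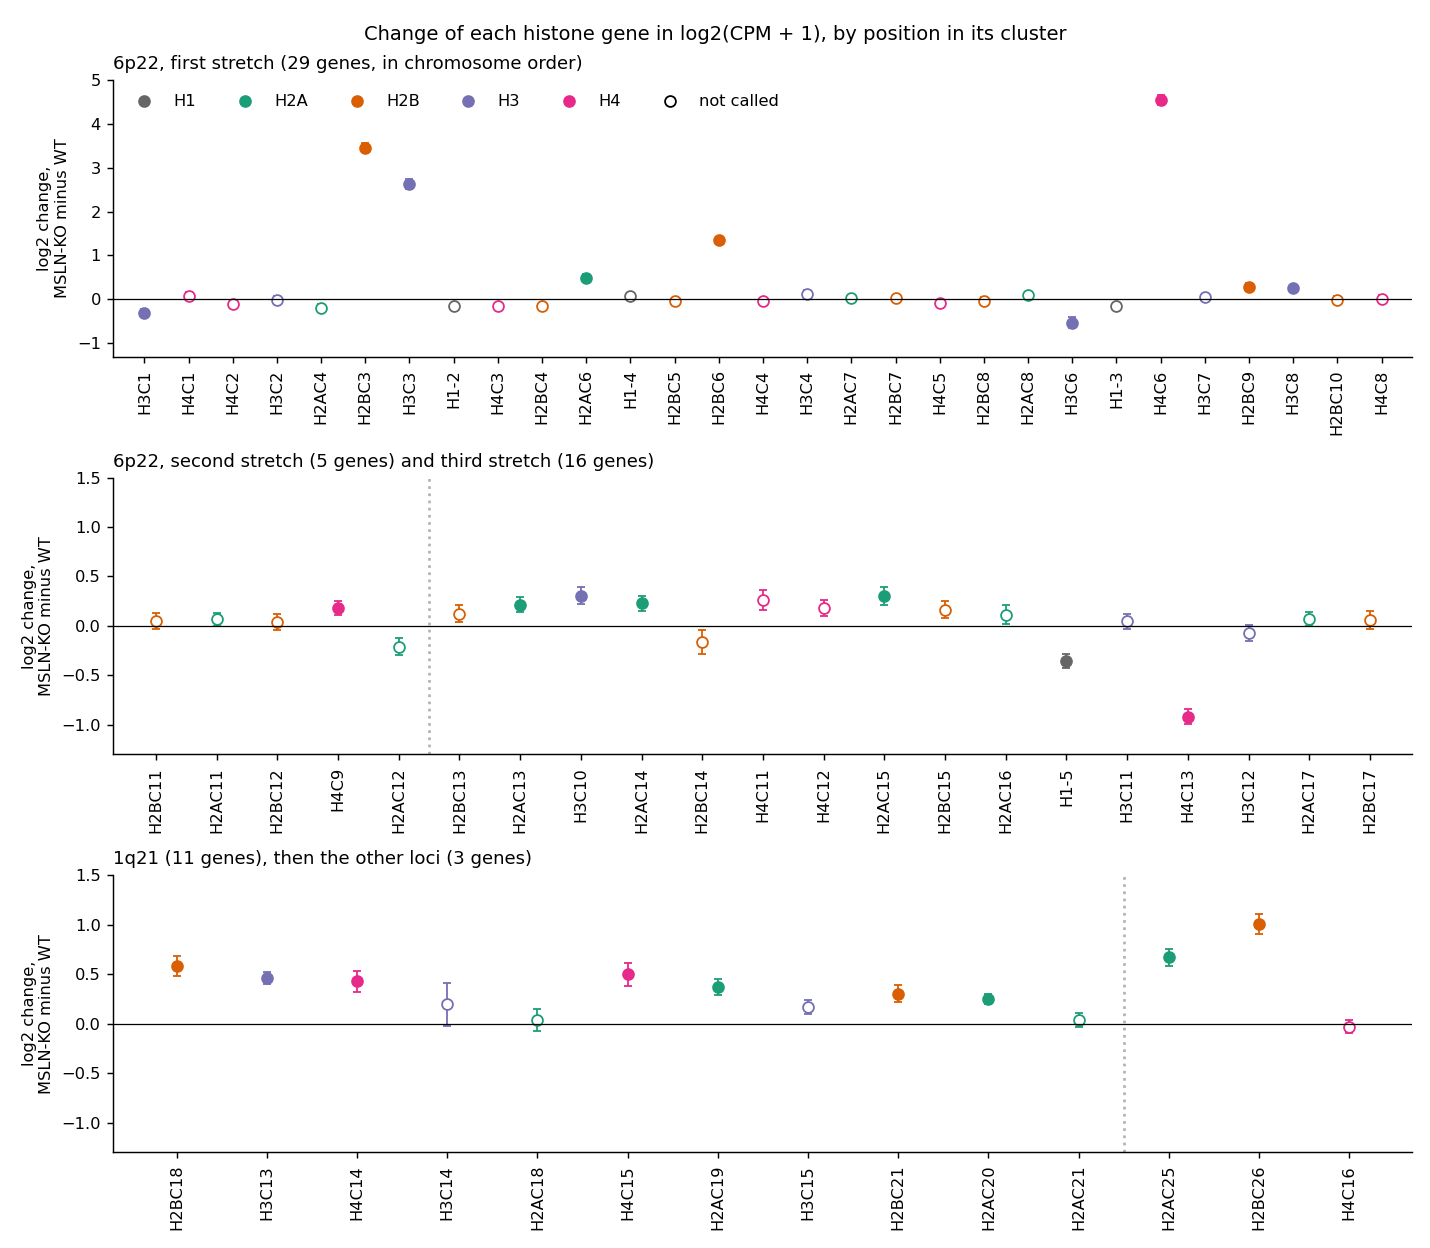
Change of each histone gene along its cluster, in chromosome order. The vertical axis is the log2(CPM + 1) change, MSLN-KO minus WT. The first panel has a wider scale than the others, which share a scale. Bars are the standard error, colours the histone class, and open points genes that were not called. Most genes of the 6p22 panels lie near 0 with H4C6, H2BC3, H3C3 and H2BC6 far above, while all 11 genes at 1q21 lie above 0.

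The largest rises were those of 4 genes at 6p22, which sit among neighbours that were mostly not called. H4C6, H2BC3, H3C3 and H2BC6 rose by more than 1 on the log2 scale, a size that 1.79% of all genes reached among those called higher. H4C13 had the largest fall of any histone gene, by 0.92, so that 0 fell by 1 or more, against 1.51% of all genes. The promoters of the 4 risers at 6p22 and of H4C13 are shown because the results turn on them, with motifs common in histone promoters marked. They run from 250 bases before to 50 bases after the annotated start (RefSeq, GRCh38.p14), with 3 motifs in capitals: ATTTGCAT, the octamer; TATAA, the TATA box core; and CCAAT. Each was searched on both strands, and neighbouring matches that overlap run together.
H2BC3, chr6:26043664-26043963, minus strand: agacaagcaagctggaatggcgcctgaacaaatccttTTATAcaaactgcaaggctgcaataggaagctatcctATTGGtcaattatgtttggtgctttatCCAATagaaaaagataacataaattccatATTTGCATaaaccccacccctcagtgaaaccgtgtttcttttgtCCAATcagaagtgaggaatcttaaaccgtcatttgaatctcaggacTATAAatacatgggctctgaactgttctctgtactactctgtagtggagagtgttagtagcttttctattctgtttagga
H3C3, chr6:26045134-26045433, plus strand: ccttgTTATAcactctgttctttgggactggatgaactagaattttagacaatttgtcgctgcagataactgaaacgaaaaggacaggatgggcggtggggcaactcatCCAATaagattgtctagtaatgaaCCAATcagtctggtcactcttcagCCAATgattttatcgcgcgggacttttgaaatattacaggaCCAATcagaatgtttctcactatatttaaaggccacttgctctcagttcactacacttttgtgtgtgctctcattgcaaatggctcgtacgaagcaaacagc
H4C6, chr6:26240143-26240442, plus strand: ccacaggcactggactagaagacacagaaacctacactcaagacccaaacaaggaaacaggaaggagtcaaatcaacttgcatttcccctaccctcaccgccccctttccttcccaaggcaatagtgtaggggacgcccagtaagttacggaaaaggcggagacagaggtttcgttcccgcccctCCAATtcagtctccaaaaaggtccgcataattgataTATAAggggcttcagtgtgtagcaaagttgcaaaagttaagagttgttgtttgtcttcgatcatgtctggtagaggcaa
H2BC6, chr6:26183511-26183810, plus strand: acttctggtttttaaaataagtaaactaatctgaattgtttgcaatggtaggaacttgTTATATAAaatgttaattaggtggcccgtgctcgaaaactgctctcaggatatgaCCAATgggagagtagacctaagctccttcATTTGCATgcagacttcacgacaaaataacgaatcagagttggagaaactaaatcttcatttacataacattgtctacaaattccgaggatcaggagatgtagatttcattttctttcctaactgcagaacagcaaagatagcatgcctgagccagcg
H4C13, chr6:27873485-27873784, minus strand: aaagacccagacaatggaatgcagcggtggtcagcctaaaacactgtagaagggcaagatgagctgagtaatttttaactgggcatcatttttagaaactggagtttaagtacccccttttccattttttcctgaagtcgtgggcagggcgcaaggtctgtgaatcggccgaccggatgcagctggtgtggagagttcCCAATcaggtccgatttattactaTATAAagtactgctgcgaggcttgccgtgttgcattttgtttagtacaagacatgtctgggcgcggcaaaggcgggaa
The octamer stood in both H2B promoters of the set and in none of the other 3, and all 5 held at least 1 TATAA and 1 CCAAT. In H3C3 and H2BC6 the marked TATAA matches lie in the upstream part of the sequence, far from the annotated start. Among the 59 histone genes found in the promoter table, 24 held the octamer, 54 TATAA and 50 CCAAT, against 1.80%, 21.1% and 35.7% of all 27305 promoters of the same length. By class, the octamer stood in 13 of 17 H2B, 10 of 15 H2A, 1 of 11 H3, 0 of 12 H4 and 0 of 4 H1 promoters. H4 promoters were the class with few CCAAT matches, 3 of 12. A match describes these letters and not a bound site.

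H4C6 (chromosome 6, 26240393 to 26240793) encodes histone H4. It had 21.2, 23.7 and 22.02 CPM in MSLN-KO and 0, 0 and 0 CPM in WT, which are 545, 630 and 701 reads in MSLN-KO and 0 reads in each WT library. No WT library held a read of it, while all MSLN-KO libraries lay within a narrow range. Against a floor of 3 reads over the WT group (0.0405 CPM, counting error only), it was at least 550-fold higher (log2 change 4.54, SE 0.11, limma adjusted p = 1.3e-11). H4C6 reached the level needed for listing in MSLN-KO alone, so its p-value is not read as support. Its fitted log2 change depends on the pseudocount and ran from 2.45 to 6.49 over the alternatives. Despite the size of the change, H4C6 made up 0.800%, 0.900% and 0.998% of the summed H4 level in the 3 MSLN-KO libraries.

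H2BC3 (26043227 to 26043713) and H3C3 (26045384 to 26045869) are neighbours on chromosome 6, on opposite strands and transcribed away from each other. H2BC3 had 15.5, 17.1 and 16.3 CPM in MSLN-KO and 0.694, 0.542 and 0.506 CPM in WT, and the WT values rest on 17, 14 and 12 reads. The lowest MSLN-KO library was far above the highest WT library. It was 28.1-fold higher (log2 change 3.45, SE 0.11, limma adjusted p = 9.7e-11). H2BC3 too reached the level needed for listing in MSLN-KO alone, and its p-value is not read as support. H3C3 had 59.0, 62.6 and 52.2 CPM in MSLN-KO and 8.69, 6.77 and 10.3 CPM in WT. Its groups too lay well apart, and it was 6.74-fold higher (log2 change 2.63, SE 0.12, limma adjusted p = 2.2e-09). The next listed histone genes on either side, H2AC4 and H1-2, had log2 changes of -0.20 and -0.15 and were not called (limma adjusted p = 0.081 and 0.078).

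H2BC6 (26183761 to 26184230) had 112.7, 117.6 and 96.8 CPM in MSLN-KO and 43.6, 39.1 and 43.4 CPM in WT. Its groups did not overlap, and it was 2.59-fold higher (log2 change 1.35, SE 0.08, limma adjusted p = 1.9e-08). Summed, the 4 risers stood at 208.3, 221.0 and 187.4 CPM in MSLN-KO and 53.0, 46.4 and 54.3 CPM in WT, 4.01-fold higher. They were picked for their rise in these libraries, so a higher sum was fixed by that choice. Of these 4, H2BC3 and H4C6 reached 4.90 CPM, the level that every listed gene attains in 3 or more libraries, in MSLN-KO alone. They are thus listed only through the group in which they were high. Of the other 62 histone genes, 19 were called higher and 4 lower. H2BC3, H3C3, H4C6 and H4C13 share no stretch of 50 bases with an annotated transcript of another gene (GENCODE release 29), and H2BC6 shares 4.57% of its stretches.

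H4C13 (27873148 to 27873534), near the far end of the cluster, went the other way. It had 58.0, 57.2 and 50.04 CPM in MSLN-KO and 107.0, 94.7 and 113.9 CPM in WT. Every MSLN-KO library lay below every WT library, and the level was 0.523 of that in WT (log2 change -0.92, SE 0.08, limma adjusted p = 8.2e-07). Its share of the H4 sum was 2.21% ± 0.0520 in MSLN-KO and 4.47% ± 0.210 in WT (SD, n = 3 each). The H4 sum as a whole overlapped between the groups.

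**Figure D3:**
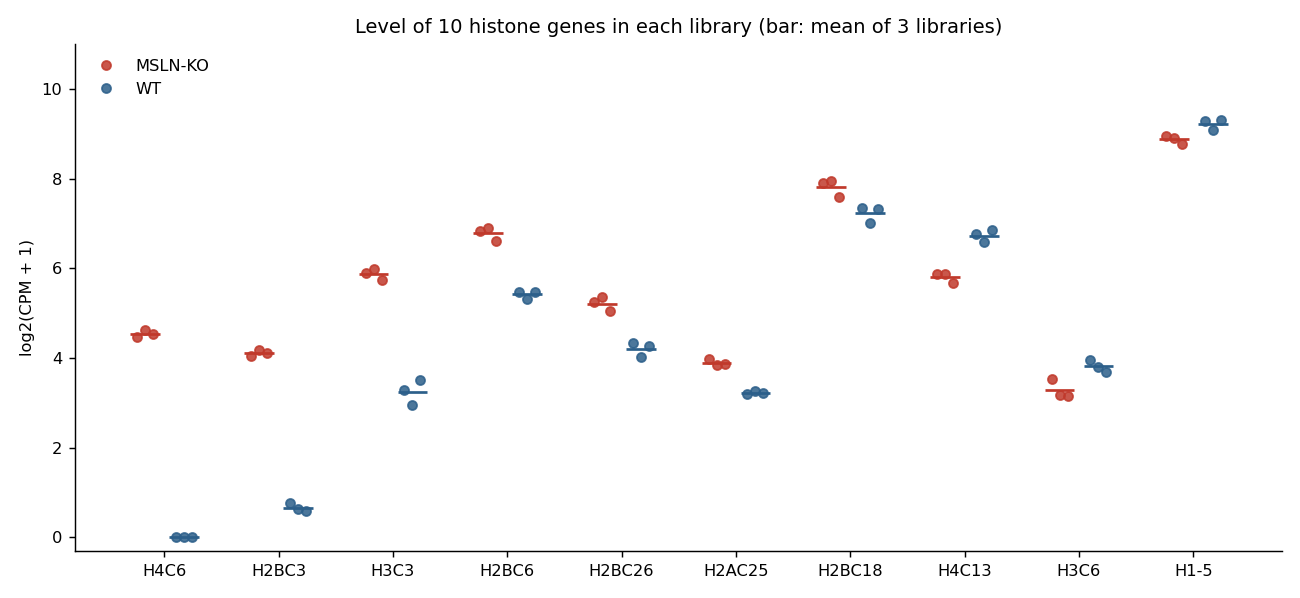
Level of 10 histone genes in each library, as log2(CPM + 1). MSLN-KO libraries (red) stand left of WT libraries (blue) and the bar is the mean of 3 libraries. In the 7 genes on the left every MSLN-KO library lies above every WT library, and in H4C13, H3C6 and H1-5 every one lies below.

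Among the rest of 6p22, 8 further genes rose and 3 fell, all by less than 1 on the log2 scale. The cluster runs in 3 stretches. The first, from H3C1 at 26020451 to H4C8 at 26285534, holds 29 of the genes, of which 7 rose and 2 fell (median 0.00). Over all genes, 22.4% were called higher and 23.3% lower, and 7 of 29 higher is near that share. The remaining risers of the first stretch were H2AC6, H2BC9 and H3C8. H2AC6, a gene for H2A, had 322.8, 321.6 and 260.9 CPM in MSLN-KO and 226.3, 193.8 and 224.6 CPM in WT. Its groups did not overlap and it was 1.40-fold higher (log2 change 0.48, SE 0.08, limma adjusted p = 0.00048). H2BC9 had 262.3, 261.6 and 215.3 CPM in MSLN-KO and 211.8, 182.8 and 211.3 CPM in WT (log2 change 0.28, SE 0.08, limma adjusted p = 0.013). H3C8 had 262.0, 269.5 and 228.4 CPM in MSLN-KO and 221.6, 189.8 and 224.9 CPM in WT (log2 change 0.26, SE 0.08, limma adjusted p = 0.016). In both, the low MSLN-KO replicate 3 lay just above the highest WT library.

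The H3 genes H3C1 and H3C6 fell in the same stretch. H3C6 had 10.5, 8.02 and 7.92 CPM in MSLN-KO and 14.6, 12.9 and 11.8 CPM in WT (log2 change -0.53, SE 0.12, limma adjusted p = 0.0025), with groups that did not overlap. H3C1 had 34.8, 34.6 and 28.7 CPM in MSLN-KO and 43.7, 35.3 and 43.4 CPM in WT (log2 change -0.31, SE 0.10, limma adjusted p = 0.018). In H3C1 the gap between the groups was small, MSLN-KO replicate 1 lying next to WT replicate 2, and the call was lost without MSLN-KO replicate 3, without WT replicate 1 and without WT replicate 3. H3C2, the H3 gene with the highest CPM at 6p22, had 448.2, 454.7 and 398.2 CPM in MSLN-KO and 458.7, 394.8 and 450.9 CPM in WT. Its groups overlapped and its change was 0.00 (SE 0.07, limma adjusted p = 0.98).

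The second stretch, from 27132316 to 27147562, holds 5 genes, of which H4C9 alone was called, beside 22.4% of all genes higher and 23.3% lower. H4C9 had 105.6, 107.4 and 94.999 CPM in MSLN-KO and 95.2, 82.9 and 93.9 CPM in WT (log2 change 0.18, SE 0.07, limma adjusted p = 0.049). Its groups overlapped and it was called in 6 of 14 alternatives. H2AC11, the H2A gene with the highest CPM at 6p22, had 446.1, 440.5 and 399.7 CPM in MSLN-KO and 429.4, 375.9 and 423.3 CPM in WT. H2BC12, the H2B gene with the highest CPM there, had 377.8, 379.9 and 319.1 CPM in MSLN-KO and 379.1, 312.2 and 358.2 CPM in WT. The groups overlapped in both and neither was called (limma adjusted p = 0.43 and 0.74), with changes of 0.07 (SE 0.07) and 0.04 (SE 0.08). H2BC12 has an annotated span that contains H4C9, so reads there could count for either.

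The third stretch, from 27807479 to 27893891, holds 16 genes, of which 4 rose and 2, H4C13 and H1-5, fell (median 0.12). Here 4 of 16 higher is near the 22.4% of all genes called higher, while 23.3% of all genes were called lower. H3C10 had 274.3, 282.9 and 225.4 CPM in MSLN-KO and 222.1, 187.3 and 223.0 CPM in WT (log2 change 0.30, SE 0.09, limma adjusted p = 0.013). H2AC14 had 214.2, 217.8 and 190.2 CPM in MSLN-KO and 186.1, 158.2 and 187.0 CPM in WT (log2 change 0.23, SE 0.07, limma adjusted p = 0.023). In these 2 genes every MSLN-KO library was above every WT library, though by little. H2AC13 had 396.1, 394.2 and 354.1 CPM in MSLN-KO and 358.2, 292.7 and 336.6 CPM in WT (log2 change 0.22, SE 0.07, limma adjusted p = 0.031). H2AC15 had 41.8, 40.2 and 33.8 CPM in MSLN-KO and 34.0, 27.5 and 31.9 CPM in WT (log2 change 0.30, SE 0.09, limma adjusted p = 0.019). The groups overlapped in both, through the low MSLN-KO replicate 3. Of the H2AC14 and H2AC13 sequences, 83.7% and 62.3% of the stretches of 50 bases occur also in other genes, so their reads cannot be assigned to them with certainty. H4C12, the H4 gene with the highest CPM of the cluster, had 496.8, 489.0 and 400.4 CPM in MSLN-KO and 429.6, 384.3 and 402.6 CPM in WT. It was not called (log2 change 0.18, SE 0.08, limma adjusted p = 0.075), and all of its stretches of 50 bases occur elsewhere.

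In the fit of all 6 libraries, the changes at 1q21 were small and in one direction. All 11 genes had a log2 change above 0, with a median of 0.30, and 7 were called higher and 0 lower (limma; 8 and 0 at an unadjusted p under 0.05). Beside this, 12 of 50 genes at 6p22 were higher and 4 lower with a median of 0.05. The background was 22.4% of all genes higher and 23.3% lower, and 12 of 50 is near it. No test of the clusters against each other was made, since genes of a cluster are not replicates. Without single libraries, 6 to 9 genes at 1q21 were called higher and none lower. At 6p22, 5 were higher without MSLN-KO replicate 1, 6 without MSLN-KO replicate 2, 18 without MSLN-KO replicate 3 and 7 without WT replicate 2, and 11 were lower without WT replicate 2. With each library scaled to the same histone total, 9 of 11 genes at 1q21 were above 0 and 6 were called. All 15 histone genes that share over 50% of their stretches of 50 bases with other genes were above 0 (median 0.19, 6 higher and 0 lower). Of the 24 that share none, 12 were above 0 (median 0.0003, 6 higher and 3 lower). At 1q21, 4 of the 11 genes are not among those 15. What part shared sequence has in the 1q21 changes was not tested.

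H2BC18, at the start of the cluster, changed most. It had 237.8, 247.4 and 191.2 CPM in MSLN-KO and 161.2, 128.7 and 160.1 CPM in WT. Every MSLN-KO library was above every WT library, a 1.503-fold difference (log2 change 0.58, SE 0.10, limma adjusted p = 0.00041). The annotated span of H2BC18 (149782689 to 149812370) overlaps that of FCGR1A, a receptor for IgG on monocytes, which rose 1.74-fold (log2 change 0.78, limma adjusted p = 4.4e-07). How far reads of FCGR1A entered the H2BC18 count was not tested. H3C13, next to it, had 105.7, 102.8 and 95.9 CPM in MSLN-KO and 75.9, 68.5 and 75.7 CPM in WT (log2 change 0.46, SE 0.06, limma adjusted p = 5.7e-05), and 80.4% of its stretches of 50 bases occur also in other genes. H2AC20 had 192.5, 194.9 and 181.6 CPM in MSLN-KO and 156.5, 161.9 and 159.8 CPM in WT (log2 change 0.25, SE 0.05, limma adjusted p = 0.0017). In both the groups were apart and the spread within a group was small.

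The middle of the cluster holds copies in near-identical pairs. H4C14 had 472.1, 464.2 and 376.6 CPM in MSLN-KO and 354.7, 270.9 and 353.1 CPM in WT (log2 change 0.43, SE 0.10, limma adjusted p = 0.0051). H4C15 had 53.9, 66.8 and 48.5 CPM in MSLN-KO and 46.8, 38.5 and 33.7 CPM in WT (log2 change 0.50, SE 0.12, limma adjusted p = 0.0046). H2AC19 had 392.9, 376.4 and 344.2 CPM in MSLN-KO and 309.2, 245.8 and 309.0 CPM in WT (log2 change 0.37, SE 0.08, limma adjusted p = 0.0031). In each of the 3 the groups were apart, but 97.5%, 97.2% and 97.1% of their stretches of 50 bases occur also in other genes, and the span of H4C15 (149844488 to 149861240) contains H2AC19 and H3C15. Sums over the pairs avoid the question of which copy a read came from, within the pair. H4C14 and H4C15 together had 525.9, 531.0 and 425.1 CPM in MSLN-KO and 401.5, 309.4 and 386.8 CPM in WT, a ratio of 1.35 with no overlap. H2AC18 and H2AC19 together had a ratio of 1.21, also with no overlap. For H3C14 and H3C15 the ratio was 1.13 and the groups overlapped.

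H3C15, the H3 gene with the highest CPM there, had 541.6, 557.9 and 496.0 CPM in MSLN-KO and 489.9, 426.0 and 502.5 CPM in WT. The groups overlapped, MSLN-KO replicate 3 lying below WT replicate 3, and it was not called (log2 change 0.17, SE 0.07, limma adjusted p = 0.063). H2BC21 had 355.3, 357.0 and 286.4 CPM in MSLN-KO and 290.9, 242.3 and 274.0 CPM in WT (log2 change 0.30, SE 0.09, limma adjusted p = 0.013). Its groups overlapped at the same library. The other 3 genes, H3C14, H2AC18 and H2AC21, had log2 changes of 0.19, 0.03 and 0.04, and none was called.

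Within the 1q21 cluster 3 other genes are listed, BOLA1 and the pseudogenes H2BC19P and H2BC20P. Their log2 changes were 0.08, 0.22 and 0.26, and H2BC20P, whose span overlaps that of H4C15, was called. Listed genes around the clusters were called in both directions. Of 26 other genes listed within 1 Mb of the 1q21 cluster, 7 were higher and 7 lower with a median of -0.01. Over all genes, 22.4% were called higher and 23.3% lower. The median of the other 501 genes of the long arm of chromosome 1 was 0.01. At 6p22, 11 listed genes without a histone symbol lie between the histone genes, among them 5 butyrophilin genes and the zinc finger genes ZNF184 and ZNF322. Of these, HMGN4, a nucleosome-binding protein, changed by -0.32 on the log2 scale and the unnamed gene ENSG00000282988, whose span overlaps histone genes, changed by 0.62, and no other of the 11 was called. Their median was -0.06.

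Outside both clusters, H2AC25 and H2BC26 form a neighbouring pair (chromosome 1, 228457364 to 228458558) and both rose. H2BC26 had 37.0, 39.8 and 31.9 CPM in MSLN-KO and 19.1, 15.1 and 18.4 CPM in WT. Its groups did not overlap and it was 2.06-fold higher (log2 change 1.01, SE 0.10, limma adjusted p = 4.1e-06). H2AC25 had 14.7, 13.4 and 13.7 CPM in MSLN-KO and 8.24, 8.59 and 8.26 CPM in WT, again without overlap, and was 1.66-fold higher (log2 change 0.67, SE 0.08, limma adjusted p = 3.3e-05). H4C16 on chromosome 12 had 46.9, 43.4 and 44.5 CPM in MSLN-KO and 48.9, 44.9 and 44.1 CPM in WT. These groups overlapped (log2 change -0.03, SE 0.06, limma adjusted p = 0.72).

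Summed over all 64 genes, the histone level overlapped between the groups. The sum was 13425, 13438 and 11397 CPM in MSLN-KO and 12545, 10772 and 12440 CPM in WT. The means were 12753 ± 1175 CPM in MSLN-KO and 11919 ± 995 CPM in WT (SD, n = 3 each), a ratio of 1.07. The sum made up 1.37%, 1.36% and 1.18% of all listed CPM in MSLN-KO and 1.243%, 1.080% and 1.248% in WT. In bulk RNA, a difference in the share of cells in S phase and one in histone RNA per cell cannot be told apart.

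The split of that sum between the clusters differed more than its size. The 6p22 sum was 10597, 10584 and 9018 CPM in MSLN-KO and 10241, 8834 and 10162 CPM in WT, a ratio of 1.03 with overlap, and of 1.02 without the 4 risers. The 1q21 sum was 2730, 2757 and 2288 CPM in MSLN-KO and 2228, 1869 and 2207 CPM in WT, a ratio of 1.23. Every MSLN-KO library lay above every WT library. As a share of all histone RNA, 1q21 gave 20.3%, 20.5% and 20.1% in MSLN-KO and 17.8%, 17.4% and 17.7% in WT. The SD of this share within a group, the low libraries included, was 0.222 points in MSLN-KO and 0.228 points in WT, while the group means differed by 2.69 points. An alternative chosen after the data were seen left out the genes that share over 50% of their sequence with other genes, and 4 of the 11 genes at 1q21 stayed in. Their share was 9.81% ± 0.124 in MSLN-KO and 8.14% ± 0.119 in WT, still with no overlap. Without H2BC18 as well, it was 7.45% ± 0.0128 in MSLN-KO and 6.49% ± 0.196 in WT (SD, n = 3 each).

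The 1q21 share was also taken within each core class, where a 1q21 copy can be set against 6p22 copies of the same protein class. Genes at 1q21 gave 19.8% ± 0.452 of H4 RNA in MSLN-KO and 15.5% ± 0.775 in WT. For H2B the shares were 18.2% ± 0.370 in MSLN-KO and 15.1% ± 0.347 in WT. For H2A they were 26.5% ± 0.0993 in MSLN-KO and 25.3% ± 0.266 in WT, and for H3 28.8% ± 0.135 in MSLN-KO and 27.5% ± 0.190 in WT (SD, n = 3 each). With all genes counted, the groups overlapped in none of the 4 classes. Without the genes that share over 50% of their sequence, no H3 or H4 gene at 1q21 was left, so these classes have no such value. The H2A share then overlapped, at 19.6% ± 0.541 in MSLN-KO and 19.3% ± 1.23 in WT, and the H2B share did not, at 20.6% ± 0.389 in MSLN-KO and 17.2% ± 0.463 in WT. No p is given for these sums.

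H1 was the class whose sum was lower in MSLN-KO on average. The H1 sum was 0.899 of that in WT, with overlap, while the ratios of the core classes were 1.12 for H2A, 1.10 for H2B, 1.11 for H3 and 1.06 for H4, each also with overlap. Without the genes that share over 50% of their sequence, the H4 sum had a log2 ratio of -0.0747, against 0.08 with all H4 genes. The H1 share of all histone RNA was 12.4%, 12.2% and 12.9% in MSLN-KO and 14.7%, 15.1% and 14.7% in WT, with no overlap. The shares of H2A, H2B and H3 were higher in all MSLN-KO libraries, and that of H4 overlapped. Of the called genes, 7 of 16 H2A genes and 6 of 17 H2B genes were higher and 0 lower (limma). At an unadjusted p under 0.05, 2 H2A and 0 H2B genes were lower. For H3, 4 of 13 genes were higher and 2 lower, and for H4, 4 of 14 were higher and 1 lower. Over all genes, 22.4% were called higher and 23.3% lower, and no class was tested against these shares. Without MSLN-KO replicate 1 the higher counts were 4 for H2A, 4 for H2B, 2 for H3 and 3 for H4. Without MSLN-KO replicate 3 they were 8, 8, 7 and 6. In the same fits, 1947 and 2381 of all 11363 genes were called higher. Without WT replicate 2, 2 genes of H2A and 2 of H2B were lower.

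Linker histone H1 binds the DNA between nucleosomes, and its 4 listed genes all lie at 6p22. H1-5 had 493.0, 480.4 and 433.8 CPM in MSLN-KO and 625.0, 542.2 and 631.9 CPM in WT. All MSLN-KO libraries lay below all WT libraries, at 0.782 of the WT level (log2 change -0.35, SE 0.07, limma adjusted p = 0.0014). H1-2 had 510.3, 502.1 and 453.0 CPM in MSLN-KO and 578.9, 502.9 and 548.2 CPM in WT (log2 change -0.15, SE 0.07, limma adjusted p = 0.078). H1-3 had 147.2, 142.8 and 135.1 CPM in MSLN-KO and 163.3, 143.2 and 168.0 CPM in WT (log2 change -0.16, SE 0.07, limma adjusted p = 0.071). In each, the groups overlapped at WT replicate 2. Neither was called, though both were called lower without that library. H1-4 had 517.6, 513.2 and 448.0 CPM in MSLN-KO and 478.8, 443.6 and 485.6 CPM in WT (log2 change 0.07, SE 0.07, limma adjusted p = 0.42), with groups that overlapped.

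**Figure D4:**
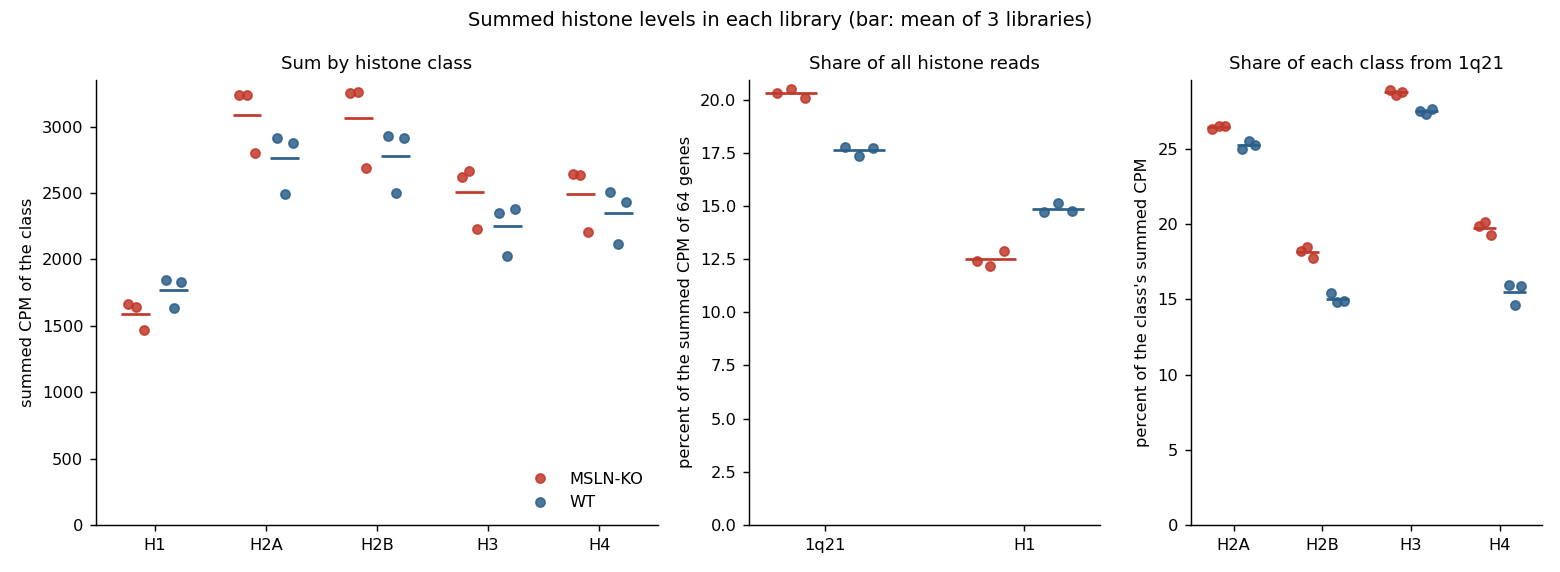
Summed histone levels in each library, MSLN-KO (red) left of WT (blue), with the mean of 3 libraries as a bar. The left panel gives the summed CPM of each class, the middle panel the share of all histone CPM from 1q21 and from H1, and the right panel the share of each core class that came from 1q21. The class sums overlap between groups, while the 1q21 share (20.3% in MSLN-KO, 17.6% in WT) and the H1 share (12.5% in MSLN-KO, 14.9% in WT) do not.

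To compare levels between genes, CPM was divided by the annotated span in kilobases for the 56 genes with a span under 1000 bases. H4C12 ranked highest in both groups, with 1194 ± 138 CPM per kilobase in MSLN-KO and 1048 ± 58.9 in WT (SD, n = 3 each). H4C14 of 1q21 ranked 2 in MSLN-KO with 1105 ± 134 and 6 in WT with 823.8 ± 121. H3C15 ranked 3 in both, with 1027 ± 61.9 in MSLN-KO and 912.7 ± 79.2 in WT. In MSLN-KO the means of H4C12 and H3C15 each differed from that of H4C14 by less than the SD of H4C14. H4C12, H4C14 and H3C15 share 100%, 97.5% and 100% of their stretches of 50 bases with other genes. Their levels and ranks thus depend on how reads of shared sequence were counted, which is not known.

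The stem-loop at the end of the mRNA is shown because it is the element that SLBP and the U7 machinery read in histone mRNAs. A window of 16 bases matching the canonical histone stem-loop pattern was searched on the sense strand of the annotated transcripts (GENCODE release 29, DNA letters). It was found for 31 of the 64 genes and in 0.0556% of all 206694 transcripts. For the other 33 these letters are not in the transcripts searched. Capitals mark the bases that differ from the most frequent form, which 17 genes carry, H2BC6, H2BC18, H2AC25 and H2BC26 among them.
Most frequent form: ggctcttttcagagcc
H4 genes H4C2, H4C5, H4C8, H4C11 and H4C16: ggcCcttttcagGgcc
H4 genes H4C9, H4C14 and H4C15: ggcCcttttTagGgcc
H2BC4, H2BC5, H2BC7 and H3C8: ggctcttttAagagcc
H3C6: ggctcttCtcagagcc
H2AC11: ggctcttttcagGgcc
Genes with the most frequent form include some that rose (H2BC6, H2BC26) and some that were not called (H3C14, H2BC8). H3C6, which fell, and H2AC11, which was not called, are each the sole gene with their form.

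The genes that process, transcribe and carry histones had median changes close to that of all genes. Of 25 listed genes for histone 3′ end processing and decay, 1 rose and 5 fell, with a median of -0.03, beside 22.4% of all genes called higher and 23.3% lower. SLBP had 79.7, 77.9 and 80.5 CPM in MSLN-KO and 76.5, 72.4 and 75.9 CPM in WT. The groups did not overlap, but the gap was small and it was not called (log2 change 0.08, limma adjusted p = 0.24). ZNF473, a zinc finger protein tied to the U7 particle, rose by 0.45. SNRPF, SNRPG and SNRPE, proteins of the Sm ring that U7 shares with splicing particles, changed by -0.39, -0.37 and -0.23, and SRRT, a partner of the cap-binding complex, by -0.22. Without MSLN-KO replicate 3 the counts were 3 and 3, and without WT replicate 1 they were 2 and 3. Without MSLN-KO replicate 1 or WT replicate 3 they were 1 and 3.

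Of 20 genes for the histone locus and its transcription, 3 rose and 4 fell (median -0.01, and 0.02 with columns scaled to equal totals). Over all genes, 22.4% were called higher and 23.3% lower. NPAT had 50.4, 52.3 and 54.0 CPM in MSLN-KO and 51.9, 54.8 and 50.6 CPM in WT, with overlap (log2 change 0.00, limma adjusted p = 0.96). NFYA, a subunit of the factor that binds CCAAT, rose by 0.31, GON4L by 0.17 and the factor SP1 by 0.15. COIL, the scaffold of Cajal bodies, changed by -0.40, CCNE1, which encodes cyclin E1, by -0.31, the kinase inhibitor CDKN1A by -0.22 and USP28 by -0.21. Without MSLN-KO replicate 1 the counts were 1 and 2, without MSLN-KO replicate 2 they were 1 and 3, without MSLN-KO replicate 3 they were 3 and 2, and without WT replicate 3 they were 1 and 3.

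Of 25 histone chaperone genes, 2 rose and 7 fell (median -0.04), against 22.4% and 23.3% of all genes. Their sum was 3301, 3312 and 3248 CPM in MSLN-KO and 3501, 3425 and 3465 CPM in WT, a ratio of 0.949 with no overlap. NAP1L1, a chaperone of H2A and H2B, rose by 0.50 and CABIN1, of the HIRA complex, by 0.20. RBBP7, a histone-binding protein of several chromatin complexes, changed by -0.47, NAP1L4 by -0.30, CHAF1B, a subunit of the assembly factor CAF-1, by -0.28 and MCM2 by -0.28. Without MSLN-KO replicate 1, MSLN-KO replicate 2, WT replicate 1 or WT replicate 3, CABIN1 was no longer called, so that NAP1L1 alone was higher. Of the 10 listed replication-independent histone genes, which are transcribed also outside S phase, 0 rose and 1 fell (limma; 0 and 2 at an unadjusted p under 0.05). The gene that fell was H3-3A, which encodes H3.3, with 291.5, 286.0 and 277.0 CPM in MSLN-KO and 318.4, 320.1 and 341.1 CPM in WT, a change of -0.20 with no overlap.

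In the fit of all 6 libraries, most S phase genes fell. Of 38 listed, 23 fell and 3 rose, with a median of -0.23, against 23.3% and 22.4% of all genes. Without single libraries, the count that fell ran from 18 (without WT replicate 3) to 25 (without WT replicate 2). The count that rose was 3 or 4. Among the larger falls were those of DUT (-0.54) and TK1 (-0.53), enzymes of nucleotide supply, and of GINS3 (-0.51), a subunit of the replicative helicase complex. CDT1, which loads that helicase, rose by 0.55, the primase subunit PRIM1 by 0.40 and RRM2, of ribonucleotide reductase, by 0.24. MSLN-KO replicate 3 was the lowest of its group in 18 of the 38 genes and WT replicate 2 the lowest of its group in 30, the libraries that were low in histone RNA. MCM2, SLBP, CCNE1, CCNE2 and E2F1 stand in another list as well. The S phase sum was 4225, 4188 and 3963 CPM in MSLN-KO and 5023, 4527 and 4990 CPM in WT, a ratio of 0.851 with no overlap. The histone sum over the S phase sum was 3.18, 3.21 and 2.88 in MSLN-KO and 2.50, 2.38 and 2.49 in WT, again with no overlap.

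Other RNAs without a poly(A) tail were set beside the histone genes in each library. Of 12 listed small nuclear, signal recognition particle and similar RNAs, 4 rose and 0 fell (limma), with a median of 0.14. At an unadjusted p under 0.05, 5 rose and 0 fell. Over all genes, 22.4% were called higher and 23.3% lower. RN7SL3, RN7SL1 and RN7SL2, close copies whose reads cannot be told apart with certainty, changed by 0.76, 0.40 and 0.37, and SCARNA2 by 0.22. Without MSLN-KO replicate 1 or 2, RN7SL3 and SCARNA2 alone were called. The sum of the 12 RNAs was 97575, 97704 and 86448 CPM in MSLN-KO and 89034, 71737 and 80447 CPM in WT, with overlap. This sum too was lowest in MSLN-KO replicate 3 and in WT replicate 2, the libraries that were low in histone RNA. It follows its most abundant RNAs, RN7SK, RN7SL1 and RN7SL2, with means of 39423, 27372 and 16498 CPM in MSLN-KO. Not all of the 12 went with it. SCARNA10 was highest of its group in these libraries, at 296.7 CPM in MSLN-KO replicate 3 and 246.4 CPM in WT replicate 2, and so was SCARNA7. What part the recovery of RNAs without a tail has in the histone levels was not tested.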

How the data were processed

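RNA of 3 MSLN-KO and 3 WT libraries of NOMO-1 was sequenced from stranded libraries of total RNA depleted of ribosomal RNA, per the labels' protocols. The submitters' processing notes name GRCh38/hg38 and the tools STAR, featureCounts and edgeR, without versions. Which annotation release and strand setting were used is not given in the sources used here, so reads of overlapping or antisense genes cannot be told apart, and reads of near-identical copies may have been split or dropped. The table the authors deposited holds CPM after TMM scaling, 1 column per library and 11363 genes, and 0 columns of per-sample values were left unused. In each column 100% of values were whole multiples of a fixed step within 0.01 of it. Dividing by that step gave the reads printed here, which would be wrong if the values were not made from whole reads. All listed genes reached 4.90 CPM in at least 3 libraries.

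Symbols were matched for 11354 genes. Coordinates are 1-based and on GRCh38, from RefSeq (GRCh38.p14) for histone genes and promoters and from GENCODE release 29 for other genes, and a symbol of 59 of the 64 histone genes was in the promoter table. Shared sequence is the percentage of a gene's stretches of 50 bases found in transcripts of other genes.

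The groups were compared on log2(CPM + 1) in all 11363 genes by limma 3.58.1 under R 4.3.3, using lmFit and eBayes (trend on) and no covariates. Genes with a two-sided p under 0.05 after Benjamini-Hochberg adjustment over the whole table were called. Log2 changes are MSLN-KO minus WT, and the added 1 makes those of low genes too small. Ratios are of mean CPM. The floor of 3 reads covers counting error only, as reads carry no molecular identifiers.

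Values in every library are given for each called histone gene, for the gene with the highest mean CPM of each class in each cluster and for every H1 gene. Of each gene list, up to 4 called genes per direction are named, with SLBP and NPAT. Not every gene that this rule names is reported here. The rule for the histone genes reads symbols alone, but it and the lists were chosen with earlier results of these data known. Alternatives changed the pseudocount, filter, scaling, variance trend and replicate block, or left out a library.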

Additional observations from a re-analysis of the deposited data

How the results depend on the processing

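Over the fits that leave out 1 library, the count called higher ran from 13 (without MSLN-KO replicate 1) to 29 (without MSLN-KO replicate 3) beside 21 in all 6 libraries, and the count called lower from 3 to 11 (without WT replicate 2) beside 4. At 6p22 these ranges were 5 to 18 higher, beside 12, and 3 to 11 lower, beside 4. With each library scaled to an equal histone total, chosen after the data were seen, 16 histone genes were lower, all 16 at 6p22. The summed log2 ratio of the 3 genes outside the clusters was 0.40, and 0.95 without H4C16, the one with the highest CPM. The H4 sum had a log2 ratio of 0.08, and it reversed to -0.0747 without the genes that share over 50% of their sequence. The 1q21 share of all histone RNA differed by 2.69 points, MSLN-KO minus WT. The difference was 1.67 points without those genes and 0.953 without H2BC18 as well. For H2A it was 1.23 points and 0.351 without those genes. For H2B it was 3.12 points, and 1.60 without those genes and H2BC18. The cause of these shifts was not tested. At 1q21, the count called higher stayed between 6 and 9 beside 7. In all, 190 of 200 alternative values of the counts and sums kept their direction and stayed within 1.5 times, or within the spread between replicates for sums. The replicate number, taken from the titles, did not pair the libraries: deviations of libraries with the same number correlated at 0.19, -0.17 and -0.09 over genes. With a replicate block, 21 histone genes were higher, 20 of them shared with the fit without it, and 4 were lower; H4C9 was lost and H4C11 gained. Count-model fits planned on reads recovered from the CPM steps were not run. Depth limits H4C6 and H2BC3 in WT, where they had 0 and 43 reads over the group.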
